A study of Mus musculus with 36 samples.

Results

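Blood of mice exposed to 3 Gy of a mixed field, in which neutrons contributed 15% of the dose by the label (0.45 Gy), was compared with blood of mice exposed to 3 Gy of x-rays alone. The members are all arrays titled with the 15% neutron field (6) and all titled with 3 Gy x-rays (6), 12 of the 36 arrays of the series. All mice were male C57BL/6J, irradiated as young adults, and each array held whole-blood RNA of a separate mouse, taken by cardiac puncture 7 days after exposure and reduced for globin RNA. The other 24 arrays are sham-irradiated controls, 5% and 25% mixed fields and neutrons without added x-rays, with 6 arrays each. The total dose was held at 3 Gy, so the mixed field replaced part of the x-rays rather than adding to them, and the neutron source also delivered some photons.

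X-rays deposit their energy sparsely, whereas neutrons act mainly through recoil protons and heavier nuclei that leave dense tracks, so that damage to DNA is more clustered for the same dose. Circulating lymphocytes are among the most radiosensitive cells of the body, and a week after exposure blood is restocked by the surviving marrow. Genes that are commonly followed in irradiated blood include targets of p53, DNA repair genes, interferon-response genes, and genes of translation and of red-cell formation. In whole blood, fewer cells of a type and less RNA per cell cannot be told apart.

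The 12 arrays lay on 5 of the 10 slides, and the slides were scanned on 4 days. X-ray replicates 1 to 5 were scanned on day 1 and 15% replicates 1, 2, 4, 5 and 6 on day 2, so that for these 10 arrays the exposure and the scan day cannot be told apart. X-ray replicate 6 and 15% replicate 3 were on slide 10, scanned on day 4, and this shared slide gives a comparison of 1 array of each group within a slide, with no test. The number of probes well above background was 18124 ± 975 for x-rays and 18005 ± 1991 for the 15% field (mean ± SD, n = 6 each), and these means did not differ beyond the spread (exact two-sided permutation test, p = 0.883). Across genes well above background on all 12 arrays, correlations of 15% replicate 3 with the other 15% arrays were 0.890 to 0.935, and with the x-ray arrays 0.871 to 0.972. Results are therefore given with all 12 arrays, on the shared slide, and without it.

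Genes typical of liver cells were present in many of the blood samples. Levels are given as log2 above the median probe of the same array. The mean level of 19 such genes, among them albumin (Alb) and transthyretin (Ttr), had a lowest, median and highest value of −1.10, 3.71 and 9.77 on the x-ray arrays, of 4.12, 5.38 and 12.03 on the 15% arrays, and spanned −1.11 to 9.11 in the controls. The groups overlapped, and none of the 19 genes was called or reached an unadjusted p below 0.05 in limma. On the shared slide, however, the mean stood at 10.19 for 15% replicate 3 and at 0.24 for x-ray replicate 6. In all, 265 genes were more than 5 log2 units higher on that slide in the 15% array, and none of them was a called gene. With the liver level of each array as a covariate, 416 genes were called higher and 252 lower. All 617 genes called without it kept their direction, while 219 of the 243 higher and 240 of the 374 lower kept their call.

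Of 15085 genes tested, 617 (4.09%) passed both thresholds in limma, a p below 0.001 and an adjusted p (Benjamini-Hochberg) below 0.05, and these are the called genes, 243 higher (1.61%) and 374 lower (2.48%) in the 15% field than after x-rays. Genes called higher differed by 1.12 to 5.60 on the log2 scale (median 2.00) and genes called lower by −3.10 to −1.01 (median −1.64), while the median of all genes tested was 0.12. The higher calls made up 39.4% of the total with median centring, 26.5% with 75th percentile scaling, and all 196 calls with normexp background correction. The adjusted p of the called genes lay between 0.0161 and 0.0243, and the p below 0.001 was the stricter threshold. At an unadjusted p below 0.05, 15.3% of genes were higher and 12.8% lower, and 9.97% had an adjusted p below 0.05.

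The falls and the rises behaved differently on the shared slide. Of the 374 genes called lower, 369 were also lower there (median −0.75), whereas 107 of the 243 genes called higher were higher there (median −0.15). Over all genes measured on that slide, 40.6% were higher and 59.4% lower in the 15% array (median −0.20). Since the slide's arrays also entered the calls, genes were called again on the other 10 arrays, which gave 641 higher (4.25%) and 392 lower (2.60%). On the shared slide, 167 of these 641 were higher (26.1%, median −0.42) and 364 of these 392 were lower (92.9%, median −0.61). Without 15% replicate 3 alone, 803 genes were called higher (5.32%) and 569 lower (3.77%).

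**Figure D1:**
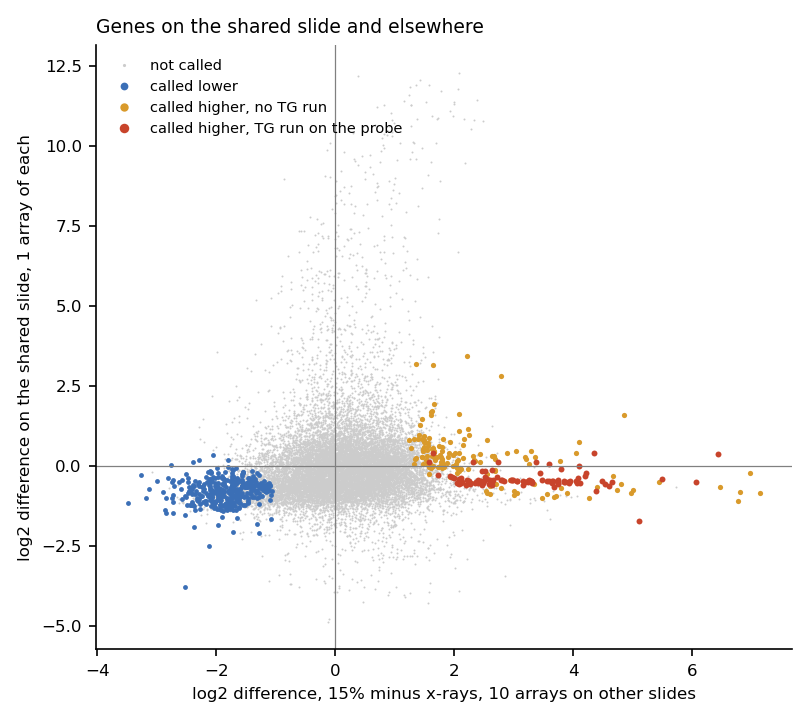
Log2 difference of each tested gene, 15% field minus x-rays, on the 10 arrays of other slides (x axis) and on the shared slide with 1 array of each group (y axis). Genes called lower (blue) lie almost all below 0 on both axes, genes called higher with a TG run on their probe (red) lie to the right and mostly just below 0 on the shared slide, and the 265 genes with a shared-slide difference above 5 are all uncalled.

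The plot of shared-slide differences shows how separate these groups of genes are. In a model of group and scan day over the 24 arrays of controls, x-rays, 5% and 15% fields, which rests on slide 10 to separate group from day, no gene was called, 419 had an unadjusted p below 0.05 and 4 a p below 0.001. All 374 genes called lower were lower in that model (median −0.94), and 219 of the 243 called higher were higher (median 0.27). Over all genes the median was −0.15 and 58.2% were lower. The 12 arrays that gave the calls also entered this model, so these directions are not independent of the calls. The median SE was 0.61 in this model and 0.37 in the comparison of 12 arrays.

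The largest class of genes called higher was defined by the sequence of the probe. Probes of the array are 60 bases long, and 140 genes tested (0.928%) were measured by a probe with an unbroken run of alternating T and G of at least 10 bases. Of these, 95 were called higher, 67.9% against 1.61% of all genes, and none was called lower. They made up 39.1% of all genes called higher. The 95 calls became 58 to 63 without any of 15% replicates 1, 2, 4, 5 and 6 or x-ray replicates 1 and 3, and 122 without 15% replicate 3, and 1 such gene was called lower without x-ray replicate 6. Stretches of 30 bases of such probes are printed to show what these genes have in common, with the TG run in capitals; they read along the transcript strand, positions are those of the array design in mouse build mm9, and their place within each gene was not analysed here.
Blcap, chr2:157382670-157382699, minus strand: aatgtgtgtTGTGTGTGTGTttacatacca
Rbp3, chr14:34777349-34777378, plus strand: cttctttctTGTGTGTGTGTatgatgtaac
Ehmt1, chr2:24646425-24646454, minus strand: GTGTGTGTGTGagtgtgtgtgactcttcta
Ppp1r3b, chr8:36451115-36451144, plus strand: GTGTGTGTGTGTGgtggaagagaatgattt
Knop1, chr7:125985796-125985825, minus strand: gtgtgtaTGTGTGTGTGagacttaataact
Suv39h2, chr2:3373207-3373236, minus strand: tgtgtgtcTGTGTGTGTGTGTtgcttacta
Yipf2, chr9:21393469-21393498, minus strand: cgccttcctTGTGTGTGTGTGacagatctt
Ubtf, chr11:102167025-102167054, minus strand: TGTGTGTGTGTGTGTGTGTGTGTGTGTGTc

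The first 6 of these genes were among the largest rises of called TG-run genes that were well above background on all 12 arrays, and were chosen after their values were seen. Blcap, a gene first described in bladder cancer, was at 2.43, 2.73, 2.64, 3.52, 2.54 and 3.67 on x-ray replicates 1 to 6 and at 8.40, 8.19, 3.28, 8.12, 8.66 and 8.02 on 15% replicates 1 to 6. All 15% arrays but replicate 3 stood far above the x-ray arrays, and replicate 3 stood among them. Its difference was 4.52 ± 0.75 (SE, adjusted p = 0.0161), and on the shared slide −0.39.

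Rbp3, the retinoid-binding protein of the retina, showed the same arrangement, with 5.87, 6.02 and 6.67 (lowest, median, highest) after x-rays and 6.04, 10.65 and 11.19 in the 15% field. The value 6.04 was again that of replicate 3. Ehmt1 and Suv39h2 are histone methyltransferases that act on lysine 9 of histone H3, and differed by 3.67 ± 0.68 and 3.34 ± 0.61 with all 12 arrays and by −0.45 and −0.36 on the shared slide. Ppp1r3b, a glycogen-targeting subunit of protein phosphatase 1, differed by 3.48 ± 0.64 and by −0.21 on the shared slide, and Knop1, a nucleolar protein, by 3.42 ± 0.65 and by 0.02. All of them had an adjusted p of 0.0161, and replicate 3 lay at the x-ray level in each.

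The rise differed by the length of the run. Genes whose probe held a TG run of at most 3 bases had a median difference of 0.09, and the median was 0.12 for runs of 4 to 5, 0.29 for 6 to 7 and 0.54 for 8 to 9 bases. It was 2.23 for runs of 10 to 12 bases, of which 26 of 46 were called, and between 1.73 and 2.03 for every longer class. On the shared slide the medians of all these classes were below 0. Over the 140 genes the median difference was 2.06 with 12 arrays, 2.51 without the shared slide, −0.46 on it (125 of 140 lower) and 0.13 in the model with scan day. The complementary CA run of at least 10 bases was found on the probes of 65 genes (median 1.18, shared slide −1.04). Of these, 4 were called higher (6.15%, against 1.61% of all genes) and none lower.

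**Figure D2:**
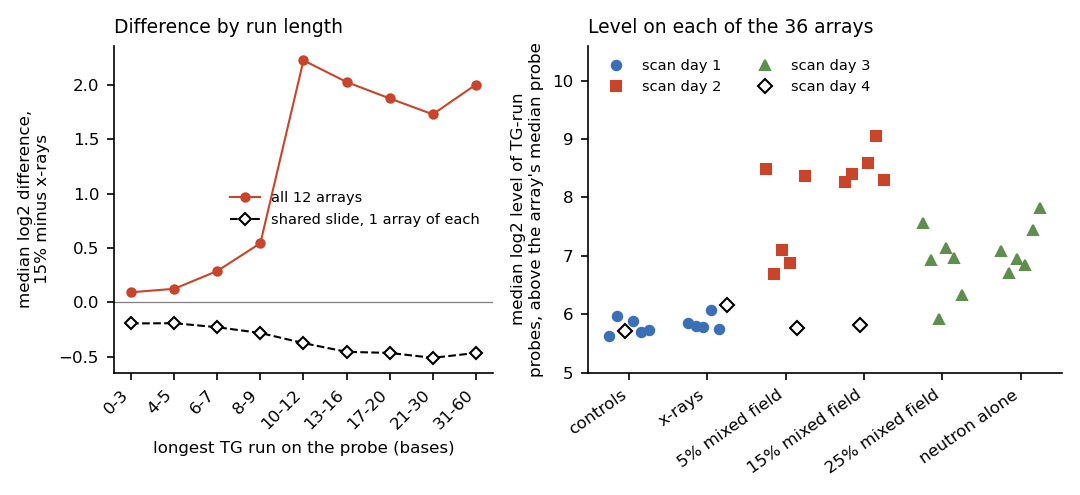
Left, median log2 difference (15% field minus x-rays) of genes by the longest TG run on their probe, with all 12 arrays and on the shared slide, where it steps from 0.54 at 8 to 9 bases to 2.23 at 10 to 12 bases with 12 arrays only. Right, median log2 level of 148 TG-run probes on each of the 36 arrays by group and scan day: the 5 arrays of the 15% field scanned on day 2 lie between 8.27 and 9.05 and its array scanned on day 4 at 5.81, beside the x-ray arrays at 5.75 to 6.16.

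The plot of TG-run probes on all arrays places these levels in the series. The median level of 148 TG-run probes that passed the background filter was 5.63 to 5.98 in the controls and 5.75 to 6.16 after x-rays. It was 8.27 to 9.05 on the 15% arrays of scan day 2 and 5.81 on replicate 3. The 5% field, scanned on the same days, spanned 6.70 to 8.48 on its 5 arrays of day 2 and had 5.76 on its array on slide 10. The 25% field and neutrons without x-rays, both scanned on day 3, spanned 5.92 to 7.57 and 6.70 to 7.82. Of the 18 arrays of the other neutron exposures, 16 were above the highest control, and the exceptions were the 5% array on slide 10 and 25% replicate 3. On slide 10 the control, 5% and 15% arrays were between 5.72 and 5.81 and the x-ray array at 6.16.

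Other probes of the same genes were measured too. For 28 genes called higher with a TG-run probe, the array held 46 further probes without such a run, of which 22 differed in the same direction and none at p below 0.001 (median −0.02, against 2.47 for the TG-run probes of these genes). Ubtf, the upstream binding factor of ribosomal RNA genes, differed by 2.65 ± 0.54 (adjusted p = 0.0169) with a probe that held a TG run of 29 bases, and by −0.13 ± 0.29 with its other probe. For Ehmt1 the other probe differed by 0.46 ± 0.34, and the further probes of Knop1 by −0.05 ± 0.28, 0.73 ± 0.28 and 1.03 ± 0.32. Without the TG-run genes, 522 genes were called, 148 higher and 374 lower.

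Large rises also occurred without a run of 10 bases. The largest rise of a named gene, 5.57 for the neuronal transcription factor Nhlh1 (shared slide −0.23), came from a probe with a TG run of 8 bases, while the next ones, Gm5106 and Gm9924, had no TG repeat on the probe and the same arrangement of arrays. The noncoding RNA Gm5106 was at 3.89, 4.97 and 5.87 (lowest, median, highest) after x-rays and at 5.04, 11.37 and 13.10 in the 15% field, where 5.04 belonged to replicate 3. It differed by 5.53 ± 1.09 (adjusted p = 0.0161) and by −0.82 on the shared slide. Gm9924 differed by 5.45 ± 0.97 (adjusted p = 0.0161) and by −1.10 on the shared slide. These 3 genes were chosen after their values were seen.

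Genes called higher with groups that did not overlap were fewer. Of the 243 genes, 42 had every 15% array above every x-ray array, against 1.03% of all genes. The 10 named genes with the largest such rises were Agpat3, Eno1b, Ripk1, Nqo2, Mdfic, Ccl27a, Tm6sf2, Yipf2, Pomp and Rab3ip, and all of them were also higher in the 15% array on the shared slide, by 0.06 to 1.61. The direction on the shared slide is fixed by the choice, since in groups that do not overlap any 15% array is above any x-ray array.

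Agpat3, an acyltransferase of phospholipid synthesis, was at 5.64, 6.14 and 6.31 (lowest, median, highest) after x-rays and at 6.39, 7.73 and 8.84 in the 15% field. The lowest 15% array, replicate 3, was just above the highest x-ray array. It differed by 1.73 ± 0.36 (3.32-fold, adjusted p = 0.0172) and by 0.75 on the shared slide.

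Ripk1, the kinase that links death receptors to survival and cell death, was at 1.18, 2.17 and 2.73 after x-rays and at 2.79, 3.65 and 4.61 in the 15% field. It differed by 1.63 ± 0.36 (adjusted p = 0.0197) and by 0.28 on the shared slide. Nqo2, a quinone reductase, had the largest shared-slide rise of the 10, 1.61, with a difference of 1.61 ± 0.39 over 12 arrays (adjusted p = 0.0238). Its levels were 3.75 to 5.12 after x-rays, 5.35 to 7.46 in the 15% field and 3.27 to 4.28 in the controls. Pomp, which helps to assemble the proteasome, differed by 1.43 ± 0.32 (adjusted p = 0.0192) and Rab3ip, an activator of Rab8 in vesicle transport, by 1.41 ± 0.33 (adjusted p = 0.0215). Rab3ip was at 4.1 to 4.82 in the controls, above all x-ray arrays and 5 of the 6 arrays of the 15% field.

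Eno1b, a near-copy of the glycolytic enzyme gene Eno1, differed by 1.71 ± 0.34 (adjusted p = 0.0161), and Eno1 itself by 1.52 ± 0.32 (adjusted p = 0.0172). Because their sequences are nearly identical the probes may read both genes, and the shared-slide differences were 0.06 and 0.04. The array design places the Eno1b probe on chromosome 2, and the GRCm38 annotation has the gene on chromosome 18. Mdfic, a regulator of myogenic and other transcription factors, differed by 1.58 ± 0.37 (adjusted p = 0.0218), and the chemokine Ccl27a by 1.53 ± 0.33 (adjusted p = 0.0178). Ccl27a has near-identical copies in the genome and is uncertain for that reason. Tm6sf2, a lipid-handling protein of liver and gut, was at 2.76 to 3.74 after x-rays and 4.00 to 5.54 in the 15% field, a difference of 1.46 ± 0.32 (adjusted p = 0.0192). Yipf2, a Golgi membrane protein, differed by 1.44 ± 0.26 (adjusted p = 0.0161), with a TG run of 12 bases on its probe.

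Several of these calls were near the threshold. Agpat3, Eno1b and Yipf2 kept theirs when any 1 of the 12 arrays was left out. Ccl27a lost it without x-ray replicate 3 (adjusted p = 0.0485, with the unadjusted p above 0.001), and Pomp without x-ray replicates 2 or 3 or 15% replicates 2, 4 or 6. Ripk1 and Tm6sf2 lost theirs without any of 7 arrays, and Nqo2, Mdfic and Rab3ip without any of 9, while their differences stayed between 1.15 and 1.80. For 44 genes called higher with a probe without a TG run, the array held 61 further probes without such a run. Of these, 43 differed in the same direction, 4 of them at p below 0.001 (median 0.27, against 1.52 for the probes called). Further probes of the named rises differed by −0.43 for Eno1b, −0.03 for Pomp, 0.10 for Mdfic, 0.33 for Nqo2, and 0.64 and −0.39 for Ccl27a.

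**Figure D3:**
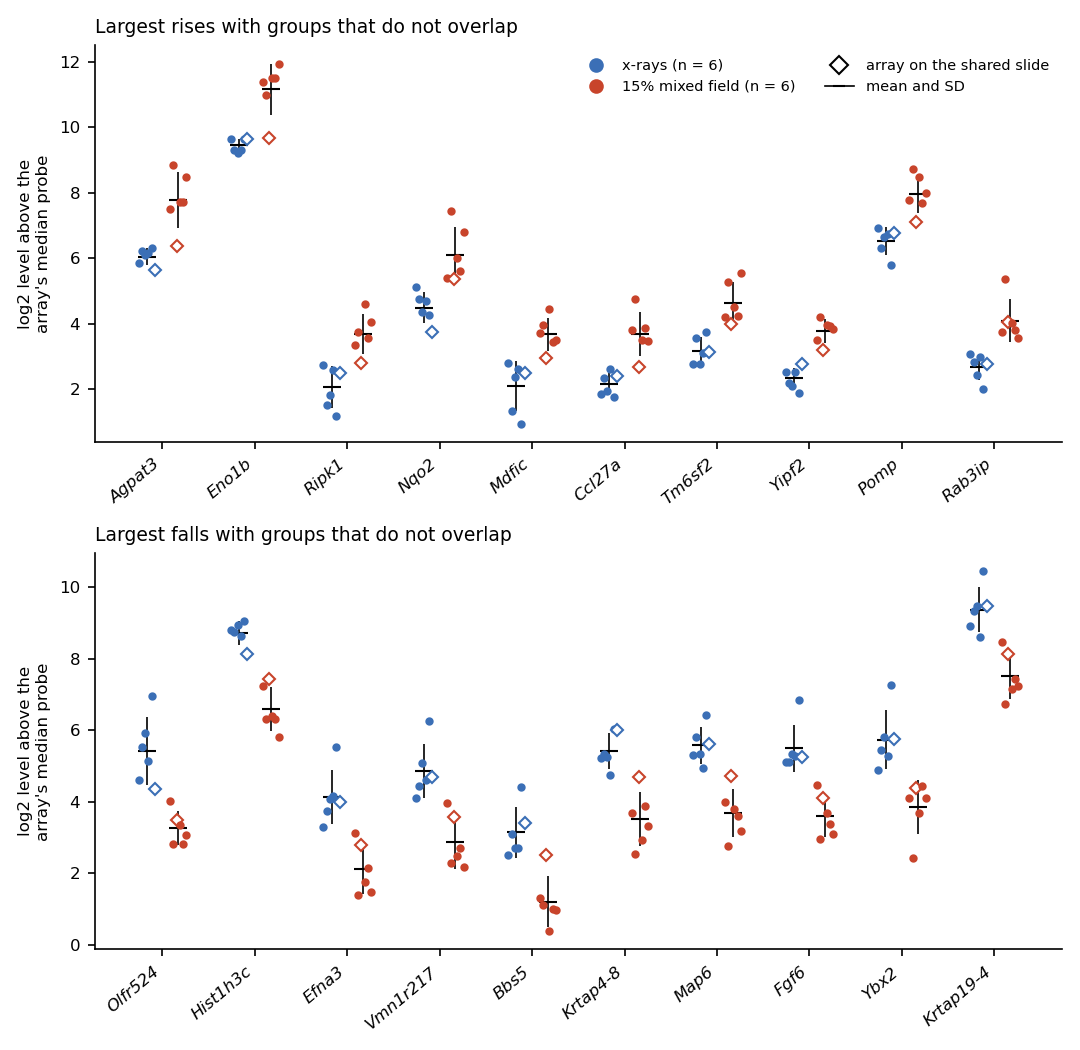
Log2 level above the array's median probe on each of the 6 x-ray arrays (blue) and the 6 arrays of the 15% field (red) for the 10 largest rises (top) and the 10 largest falls (bottom) with groups that do not overlap. Bars show the mean and SD, and open diamonds the arrays of the shared slide, which lie closest together for Eno1b (9.69 against 9.63).

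A small group of zinc-finger genes, found after the values were seen, was called higher. Proteins of the C2H2 zinc-finger family bind DNA through repeated fingers joined by a conserved linker, and the bases GAGAGAAACC, which encode part of that linker, were on the probes of 8 of the 243 genes called higher (3.29%) against 26 of all genes tested (0.172%). Of the 26, 1 was called lower. The 8 calls became 2 to 5 without any of 15% replicates 1, 2, 4, 5 and 6 or x-ray replicates 2, 3, 5 and 6, and 15 without 15% replicate 3. They became 1 with normexp, where 16 of the 26 genes were compared on the same probe. Searched on the opposite strand, they were found on 2 probes of all genes. The median difference of the 26 genes was 1.38, and 7 of the 8 were higher on the shared slide. Of these, 2 are shown with the shared bases in capitals.
Zfp936, chr7:50445744-50445773, plus strand: acacatactgGAGAGAAACCttacaaatgt
Zfp930, chr8:71752264-71752293, plus strand: tgGAGAGAAACCctatgaatgtaatgaatg

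Zfp936 was at 0.97, 1.45 and 2.55 (lowest, median, highest) after x-rays and at 1.80, 3.98 and 4.61 in the 15% field, and at 2.57 to 3.39 in the controls. The x-ray arrays lay below the controls, and all 15% arrays but replicate 3 above them. It differed by 2.08 ± 0.44 (adjusted p = 0.0176), and Zfp930 by 1.81 ± 0.39 (adjusted p = 0.0187). A further probe of Zfp930 differed by 0.01 ± 0.34. Because these genes share the bases that their probes read, their values may not be independent and each gene is uncertain. Of all genes named as zinc-finger proteins by number, 10 of 237 were called higher (4.22%) and 2 lower (0.844%), and their median of 0.17 was near that of all genes.

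Most falls had groups that did not overlap. Of the 374 genes called lower, 271 had every 15% array below every x-ray array, against 3.04% of all genes, and 369 were lower on the shared slide. The 10 named genes with the largest falls of that kind were Olfr524, Hist1h3c, Efna3, Vmn1r217, Bbs5, Krtap4-8, Map6, Fgf6, Ybx2 and Krtap19-4, with differences of −2.15 to −1.85 and of −1.34 to −0.70 on the shared slide, where the direction is again fixed by the choice. With normexp background correction no gene was called lower, and these 10 genes had differences of −1.40 to −0.63 with adjusted p of 0.172 to 0.298, while the median of all genes shifted to 0.59.

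Hist1h3c, a gene of replication-dependent histone H3, was at 8.12, 8.78 and 9.05 (lowest, median, highest) after x-rays, at 5.82, 6.36 and 7.42 in the 15% field and at 6.26 to 7.58 in the controls. The x-ray arrays were all above the controls, and the 15% arrays lay within the range of the controls except 1 that was below it. It differed by −2.13 ± 0.31 (4.37-fold lower, adjusted p = 0.0161) and by −0.70 on the shared slide. Bbs5, a subunit of the BBSome of primary cilia, was at 2.51, 2.91 and 4.42 after x-rays and at 0.38, 1.06 and 2.50 in the 15% field, where 2.50 was that of replicate 3. It differed by −1.93 ± 0.39 (adjusted p = 0.0169).

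Most of the other falls were in genes that are not typical of blood. Olfr524 is an olfactory receptor and Vmn1r217 a vomeronasal receptor, Krtap4-8 and Krtap19-4 are hair keratin-associated proteins, Map6 stabilises microtubules in neurons, Fgf6 is a growth factor of muscle, Ybx2 binds RNA in germ cells, and Efna3 is an ephrin ligand. Fgf6 was at 5.12, 5.27 and 6.83 after x-rays, at 2.95, 3.53 and 4.48 in the 15% field and at 4.15 to 4.61 in the controls, a difference of −1.88 ± 0.36 (adjusted p = 0.0161). The highest x-ray value was that of replicate 5, which was also the highest x-ray array for the other 9 of these genes. Olfr524 differed by −2.15 ± 0.41 and Krtap19-4 by −1.85 ± 0.37 (adjusted p = 0.0161 for both). Krtap19-4 was at 8.60 to 10.44 after x-rays and at 8.38 to 8.81 in the controls.

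X-ray replicate 5 had the fewest probes well above background of the x-ray arrays, 16548, and the lowest median signal of them, 7.70 intensity units. With this array left out, 281 genes were called lower, 259 of them among the 374, and all of the 10 named falls kept their calls. Leaving out any other x-ray array kept 192 to 302 of the 374. Such counts also depend on the smaller group, so they do not measure the part of this array alone. For 41 genes called lower the array held 44 further probes, of which 28 differed in the same direction, 2 of them at p below 0.001 (median −0.27, against −1.59 for the probes called). Map6 had a further probe that differed by 1.28 ± 0.37 in the opposite direction, and Ybx2 is uncertain because the array design places its probe on chromosome 13 and the GRCm38 annotation has the gene on chromosome 11. Ybx2 lost its call when any of 7 of the 12 arrays was left out, and the other 9 kept theirs.

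By name, 14 of 118 olfactory receptors (11.9%), 4 of 22 vomeronasal receptors (18.2%) and 6 of 17 keratin-associated proteins (35.3%) were called lower and none higher, against 2.48% lower of all genes. Leaving out 1 array gave 10 to 16, 1 to 6 and 3 to 7 calls lower; the vomeronasal count fell to 1 or 2 without any of 15% replicates 1, 2, 4, 5 and 6 or x-ray replicates 3, 5 and 6, and the keratin-associated count to 3 without 15% replicates 2, 5 or 6 or x-ray replicate 3. Their medians were −0.61, −0.62 and −1.15. Under each of 32 other settings the 3 medians were below that of all genes, by at least 0.46. These settings are not independent of the main comparison. Those that change only the test or the threshold keep its medians, and others leave out 1 array. Slide as a fixed block was not counted among them, and its estimate is that of the shared slide. With normexp, 17, 8 and 8 of these genes were compared on the same probe, and none was called. These families were chosen after their values were seen.

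A run of cytosines was found on some probes of genes called lower, a motif chosen after the values were seen. The 6 bases GCCCCC were on 36 of the 374 probes called lower (9.63%), on 1 of the 243 called higher (0.412%) and on 152 of all genes tested (1.01%), and on the opposite strand on 2 of the 374 (0.535%). The 36 calls became 18 to 23 without any of 15% replicates 2, 4, 5 and 6 or x-ray replicates 3 and 6. They became 0 with normexp, where 94 of the 152 genes were compared on the same probe. The 152 genes had a median difference of −0.89, and all 36 were lower on the shared slide. Stretches of 5 of these probes are shown with the shared bases in capitals.
Efna3, chr3:89118981-89119010, minus strand: cgaagcatgggaggtGCCCCCtgtcctctc
Vmn1r217, chr13:23205744-23205773, minus strand: atgcagtcttcaGCCCCCttgtgctgattc
Krtap19-4, chr16:88885083-88885112, minus strand: atggctacaggcGCCCCCtttcctatgggg
Kdr, chr5:76330405-76330434, minus strand: tgtcccggctccGCCCCCaactcctggaaa
Khsrp, chr17:57160992-57161021, minus strand: aacctctgccccGCCCCCcaaaaaagttta

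Efna3 was at 3.29, 4.03 and 5.53 after x-rays, at 1.39, 1.96 and 3.12 in the 15% field and at 2.39 to 3.17 in the controls, a difference of −2.01 ± 0.41 (adjusted p = 0.0163). Kdr, the receptor of vascular endothelial growth factor, differed by −1.72 ± 0.35 (adjusted p = 0.0169), and Khsrp, a splicing and RNA decay factor, by −1.62 ± 0.35 (adjusted p = 0.0177), with −1.15 and −1.17 on the shared slide. For each of the 3 the x-ray arrays stood above the controls in the mean. Kdr and Khsrp were chosen after their values were seen. A further probe of Kdr differed by 1.21 ± 0.90, and that of Khsrp by −1.62 ± 0.51.

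Among 36 gene lists of blood cell types and pathways, 828 genes were tested and 11 were called (4.09% of all genes were). The lists with a called gene numbered 7. The list with the most was that of clustered histone genes, which package newly replicated DNA. Of its 33 genes, 5 were called lower and none higher, beside 2.48% lower and 1.61% higher of all genes. Besides Hist1h3c they were Hist1h3f (−2.40 ± 0.36), Hist1h2bb (−2.04 ± 0.39), Hist1h2aa (−1.86 ± 0.34) and Hist1h2bm (−1.20 ± 0.25). Hist1h3f was at 3.39 to 5.26 after x-rays and at 1.48 to 3.03 in the 15% field, with groups that did not overlap, and it was well above background on 5 of the 6 arrays of the 15% field. Hist1h2aa and Hist1h2bb were well above background on 2 and 1 of these arrays.

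The histone list did not fall as a whole. At an unadjusted p below 0.05, 7 of its 33 genes were lower and 2 higher, beside 12.8% lower and 15.3% higher of all genes. The 2 that were higher were Hist1h2ab (1.42 ± 0.42, adjusted p = 0.0465) and Hist1h1e (1.14 ± 0.31, adjusted p = 0.0343). The list's median was −0.11 with 12 arrays and 0.01 without the shared slide, where that of all genes was 0.12. All 33 genes were lower on the shared slide (median −0.72). Under none of 32 other settings was its median above that of all genes. Histone genes of a class are nearly identical in their coding parts, so single genes are uncertain.

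Markers of T and B cells gave no call over the 12 arrays. No gene was called of 25 T-cell genes (median −0.01) or 24 B-cell genes (median 0.11), and at an unadjusted p below 0.05 there were 0 and 2. The 2 B-cell genes were Cr2, a complement receptor (−1.28 ± 0.38, adjusted p = 0.0478), and Fcer2a, the low-affinity IgE receptor (−1.35 ± 0.42, adjusted p = 0.0541). On the shared slide these lists moved apart: 25 of 25 T-cell genes were lower in the 15% array (median −0.99) and 18 of 24 B-cell genes higher (median 1.46). Of 20 genes of NK and cytotoxic cells, Klre1, a lectin-like NK-cell receptor, was called lower. It was at 3.20, 3.51 and 4.26 after x-rays and at 1.89, 2.49 and 2.93 in the 15% field, with groups that did not overlap, and differed by −1.13 ± 0.27 (adjusted p = 0.0237). It lost the call without any of 10 of the 12 arrays (p up to 0.0031).

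Genes of neutrophils, platelets and globins had medians above that of all genes and no call. The medians were 0.69 for 20 mature neutrophil receptor and S100 genes, 0.47 for 5 primary granule genes, 0.42 for 13 secondary and tertiary granule genes, 0.40 for 22 platelet genes and 0.30 for 8 globin genes. On the shared slide the same medians were −0.62, −0.34, −1.33, −0.62 and −0.80. Monocyte genes had a median of 0.14 with none of 21 at an unadjusted p below 0.05. Other red-cell lists lay on both sides of the 0.12 of all genes, with 0.27 for 20 genes of the membrane and skeleton, 0.09 for 13 genes of heme synthesis, 0.08 for 12 erythroid transcription factors and 0.06 for 12 genes of reticulocyte organelle clearance. Elane, neutrophil elastase, was at 6.26 to 7.45 after x-rays and at 5.82 to 9.72 in the 15% field, so that the groups overlapped. It differed by 2.07 ± 0.57 (adjusted p = 0.0375) and by −0.85 on the shared slide, while the other primary granule genes differed by 0.03 to 0.59. Of the 20 mature neutrophil genes, 2 were higher and 2 lower at an unadjusted p below 0.05, beside 15.3% and 12.8% of all genes. The call in these lists was E2f4, an erythroid transcription factor that pairs with retinoblastoma family proteins, which was higher (1.98 ± 0.40, adjusted p = 0.0161) but well above background on 2 of the 6 x-ray arrays only.

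Genes of mitochondria had medians above that of all genes and few calls. Mitochondrial ribosomal proteins, which translate the respiratory-chain subunits encoded in mitochondrial DNA, had a median of 0.49 over 63 genes. None was called, and 21 were higher and none lower at an unadjusted p below 0.05, against 15.3% higher and 12.8% lower of all genes. On the shared slide 56 of the 63 were higher (median 0.62, against −0.20 for all genes). Under each of 32 other settings, which share these arrays and in part the same differences, the median was above that of all genes, by 0.11 to 0.78. Dap3, of the small subunit, was at 4.64 to 6.20 after x-rays and 6.11 to 7.38 in the 15% field, a difference of 1.20 ± 0.31 (adjusted p = 0.0294). Mrpl51 differed by 1.18 ± 0.32 (adjusted p = 0.0361), Mrps11 by 1.12 ± 0.29 (adjusted p = 0.0319) and Mrps24 by 1.10 ± 0.29 (adjusted p = 0.0320). For these 3, picked from the 63, every 15% array was above every x-ray array, as it was for 1.03% of all genes. A count over the whole list is not given.

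The nuclear-encoded respiratory chain, with 70 genes tested, had 22 higher and 1 lower at an unadjusted p below 0.05 (15.3% and 12.8% of all genes) and a median of 0.43. Its shared-slide median was 0.07, with 41 of 70 higher. Cox5b, a subunit of cytochrome c oxidase, was called higher. It was at 7.14, 8.16 and 8.62 after x-rays and at 8.56, 9.46 and 10.35 in the 15% field, where the groups overlapped at 1 array each, and differed by 1.42 ± 0.33 (adjusted p = 0.0212) and by 0.19 on the shared slide. It lost the call without any of 10 of the 12 arrays (p up to 0.0019). Ndufb5 of complex I differed by 1.43 ± 0.37 (adjusted p = 0.0302) and Sdhb of complex II by 1.37 ± 0.38 (adjusted p = 0.0372), which were not called.

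Cytosolic ribosomal proteins gave a different picture, with no call among 22 genes of the small and 41 of the large subunit. Their medians were 0.35 each, but 21 of 22 and 38 of 41 were lower on the shared slide (medians −0.67 and −0.73). With the deposited value table the medians turned to −0.83 and −0.68, against −0.15 for all genes. With quantile normalization they turned to −0.74 and −0.30, against −0.06. Another probe may stand for a gene under these settings, and no direction is given for these lists. Single genes moved in both directions at an unadjusted p below 0.05, 13 higher and 9 lower of 63, beside 15.3% and 12.8% of all genes. Rpl21 differed by 1.35 ± 0.39 (adjusted p = 0.0421) and Rpl13 by −0.98 ± 0.25 (adjusted p = 0.0293). Most of these genes have many processed copies in the genome, and their probes may read several of them. Aminoacyl-tRNA ligases, which charge tRNAs, had no call among 14 genes, a median of 0.39 and 13 of 14 higher on the shared slide (median 0.48). Translation initiation factors had a median of 0.10 over 29 genes, and genes of ribosome biogenesis 0.22 over 39 with Ubtf as the only call.

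**Figure D4:**
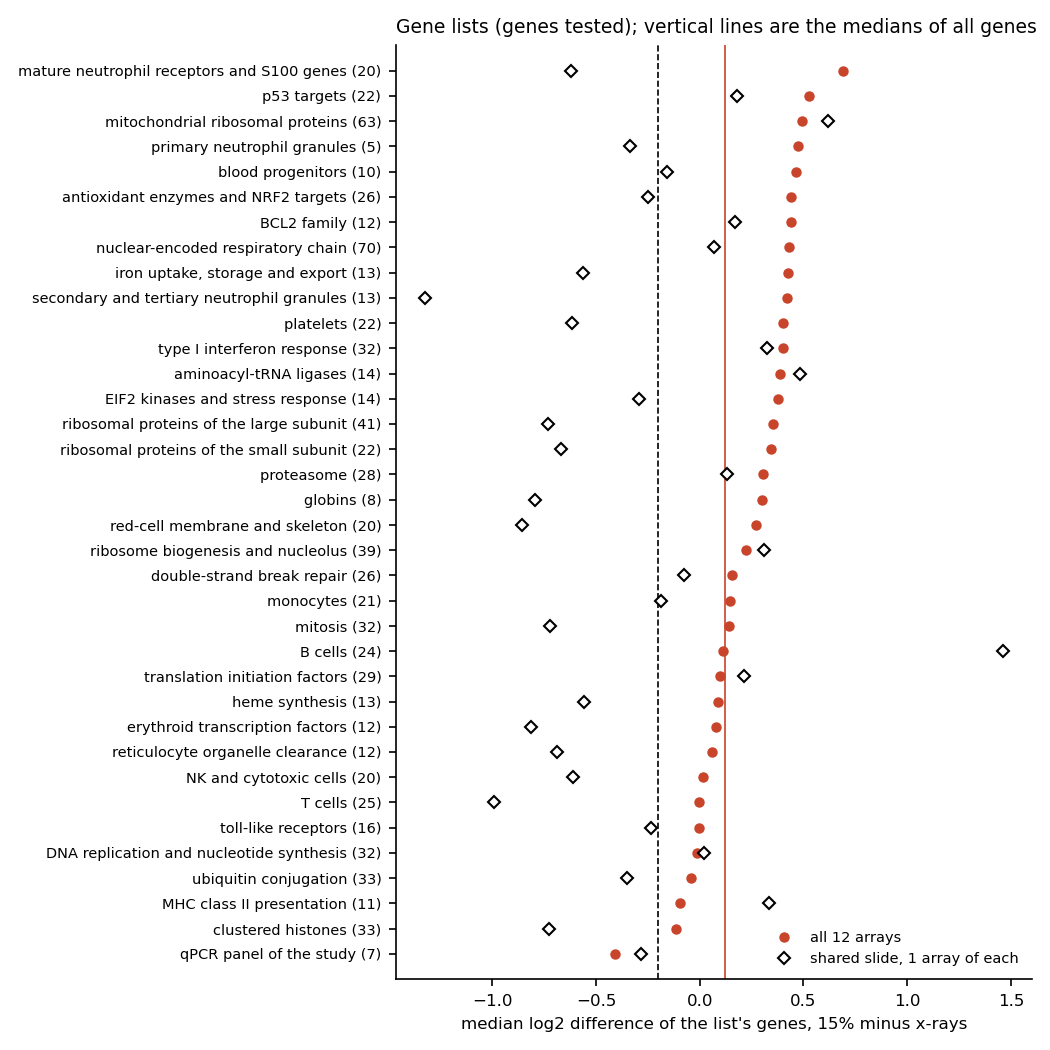
Median log2 difference, 15% field minus x-rays, of the genes of each list (number tested in parentheses) with all 12 arrays (red) and on the shared slide (open diamonds); the vertical lines are the medians of all genes, 0.12 and −0.20. Mitochondrial ribosomal proteins lie to the right of both lines (0.49 and 0.62), clustered histones to the left of both (−0.11 and −0.72), and mature neutrophil genes change sides (0.69 and −0.62).

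The plot of gene lists sets these medians side by side. Type I interferon-response genes had no call among 32, with 12 higher and 1 lower at an unadjusted p below 0.05 (15.3% and 12.8% of all genes), a median of 0.40 and a shared-slide median of 0.33. The antiviral gene Oasl2 was at 5.86 to 6.60 after x-rays and at 6.54 to 8.82 in the 15% field (1.31 ± 0.38, adjusted p = 0.0434). The median was above that of all genes under each of 32 other settings, by at least 0.10.

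Targets of p53, which responds to DNA damage, had a median of 0.53 over 22 genes, a shared-slide median of 0.18 and a median above that of all genes under the same 32 settings, by at least 0.09. The called gene was Cd80, a costimulatory ligand for T cells, which was not well above background on any x-ray array. With the x-ray mean raised to the background limit, its mean was 2.68-fold higher in the 15% field (adjusted p = 0.0203 for the values as measured). The groups overlapped, 5 of the 6 arrays of the 15% field were well above background, and the further probe differed by −0.43 ± 0.34. The call was lost without any of 8 of the 12 arrays (p up to 0.0017). Genes of double-strand break repair had a median of 0.16 over 26 genes, of DNA replication and nucleotide synthesis −0.01 over 32, and of mitosis 0.14 over 32, with no call. Among antioxidant genes Prdx6, a peroxiredoxin, was called higher. It was at 8.74, 8.99 and 9.28 after x-rays and at 8.89, 10.74 and 11.20 in the 15% field, where 8.89 was that of replicate 3, and differed by 1.5 ± 0.35 (adjusted p = 0.0215). Its 3 further probes differed by −0.52 to 0.31, and the call was lost without any of 11 of the 12 arrays, 15% replicate 3 being the exception (p up to 0.0022).

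None of 6 genes from the study's quantitative PCR panel was called between these 2 exposures. Crip2, a LIM-domain protein, was at 7.56 to 8.41 after x-rays, at 7.64 to 9.25 in the 15% field and at 4.51 to 5.65 in the controls. Every array of both exposures was above the controls, and the difference between the exposures was 0.81 ± 0.32 (adjusted p = 0.117). Chst3, a chondroitin sulfotransferase, was at 0.72 to 2.79 after x-rays, −0.56 to 2.36 in the 15% field and 6.23 to 7.35 in the controls, with a difference of −0.94 ± 0.51 (adjusted p = 0.245). It was well above background on 2 of the 6 arrays of the 15% field, so the size of this difference is uncertain. Add3, an adducin of the membrane skeleton, differed by −0.12 ± 0.39 (adjusted p = 0.865), and the transcription factor Myc by −0.41 ± 0.43 (adjusted p = 0.572).

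The ribosomal protein Rps19 was at 9.75, 9.95 and 10.30 after x-rays, at 8.93, 9.13 and 9.63 in the 15% field and at 9.50 to 10.32 in the controls. Its groups did not overlap, and it differed by −0.83 ± 0.23 (adjusted p = 0.0389), with an unadjusted limma p above the threshold of 0.001. Rpl26 differed by −0.52 ± 0.25 (adjusted p = 0.188). The array design places the probes of both on chromosomes other than those of the genes in GRCm38, so that they may read copies.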

How the data were processed

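RNA of 36 mice was hybridised to single-colour Agilent mouse arrays, with an array for each mouse. The deposited intensity values were made by the authors with Agilent Feature Extraction 12.0.2, which corrects the background and removes spatial trends within an array. The authors also deposited a table of normalized log2 values, used here as an alternative only. Intensities have no read depth, and the 6 arrays per group limit the precision.

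Processed signals were taken to log2, repeated spots averaged after non-uniform ones were dropped, and arrays centred on the median of their 39429 non-control probes. Probes were kept if under 25% of the 36 arrays lacked a uniform signal flagged as positive and significant over background (21484). This flag is less strict than well above background. Kept probes also had at least 20% of arrays that deviated by at least 1.5-fold from the median (17963). The brightest remaining probe stood for a gene, which left 15085 genes. Groups were taken from the sample titles and compared with limma 3.58.1 (lmFit and eBayes) in R 4.3.3 (files read with the data.table package, version 1.17.8) over the 12 arrays. Called genes had a p below 0.001 and, after Benjamini-Hochberg adjustment, a value below 0.05. SE is that of the log2 difference.

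Named were the 10 largest rises and the 10 largest falls among called genes with a gene symbol, well above background on all 12 arrays and with groups that did not overlap, up to 4 called genes of each list, and genes the study followed by PCR, of which 1 is not reported here. The members and lists were chosen with earlier results of these data known. On simulated data with 14933 genes, calls were made for 58 of 100 genes shifted by 2 log2 units and for 9 of 100 shifted by 1. Alternatives covered scaling, background correction, filters, test, blocks and leaving out each array. A further 4 were chosen after seeing the data: leaving out the shared slide, leaving out TG-run genes, a model with scan day, and the liver level as a covariate. Probe positions are those of the array design (mm9), and chromosomes of genes were compared with the RefSeq annotation of GRCm38.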

Additional observations from a re-analysis of the deposited data

Results flagged for a closer look

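In each group of 6 arrays, the gap between an extreme array and its nearest neighbour was divided by the range of the group, and values above Dixon's critical value for 6 samples were taken as outlying. Of 166 groups tested, 21 had an outlying array, and 10 of the 21 concerned 15% replicate 3. Chance gives about 5% of independent groups, but these groups were not independent: 6 of the TG-run genes were chosen with their values seen, and Ubtf and the TG-probe median read the same kind of probe, so the count is a description. Its low level gave a ratio of 0.881 for Blcap, 0.793 for Rbp3, 0.831 for Ehmt1, 0.840 for Ppp1r3b, 0.9 for Knop1, 0.833 for Suv39h2, 0.781 for Ubtf and 0.710 for Prdx6. The same array was low in the median level of TG-run probes (0.758) and of the other genes called higher (0.816).

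Other single arrays stood apart too. 15% replicate 2 was high for Rab3ip (0.718), low for Ybx2 (0.633) and high in the mean level of iron genes (0.754), and 15% replicate 4 was high in that of double-strand break repair genes (0.669). X-ray replicate 5 was high for Fgf6 (0.866) and low in the mean levels of translation initiation factors (0.653), EIF2 kinases and stress response genes (0.672) and the respiratory chain (0.685). X-ray replicate 1 was high for Chst3 (0.636) and Add3 (0.631). X-ray replicate 6, with 6 saturated probes against 1 on each other x-ray array, had a ratio of 1.

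Outside the comparison, 16 of the 18 arrays of the 5% and 25% fields and of neutrons alone had a median level of TG-run probes above the highest control, 5.98.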

How the results depend on the processing

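The number of genes called was 617, with 39.4% higher, a median difference of 0.12 and 7 lists with a call. The share higher and the median were 26.5% and −0.084 with 75th percentile scaling, 27.9% and −0.11 after centring on the probes measured above background throughout, 27.5% and −0.063 (12 lists) with quantile normalization, and 28.3% and −0.15 (12 lists) with the deposited value table. Normexp called 196 genes, 100% higher, with a median of 0.59 and 4 lists. The share higher was 27.3% with floored intensities, 49.2% (median 0.33) with only those probes kept that all 12 arrays measured above background, and 28.4% without TG-run genes. One model over 36 arrays called 1543 genes (53.7% higher, 20 lists), array weights 1872 (59.3%, 27 lists) and the Benjamini-Hochberg threshold alone 1504 (46.4%, 22 lists). Without the shared slide 1033 were called (62.1%, 18 lists), and with the liver level as a covariate 668 (62.3%). With slide as a fixed block, where the estimate rests on 1 array of each group on the shared slide, 0 genes and 0 lists were called, 264 genes had an unadjusted p below 0.05 and the median was −0.20. With scan day in the model, 0 genes and 0 lists were called, 419 had an unadjusted p below 0.05 and the median was −0.15. The cause of these shifts was not tested.

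Leaving out 1 array gave 312 to 1372 calls, 32.9% to 58.5% higher and 3 to 22 lists. Calls fell by more than 1.5 times without x-ray replicate 2 (375), 3 (319) or 6 (391) or 15% replicate 2 (353), 4 (312), 5 (373) or 6 (320), and rose without 15% replicate 3 (1372). The difference in probes well above background, −118.3, ranged from −754.1 to 368.9 with 1 array left out, and was 50.5, 118.3 and 238.7 without x-ray replicates 2 and 1 and 15% replicate 1.

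The replicate number as a block called 569 genes (43.9% higher, 4 lists). Of 6 same-numbered pairs, 3 had deviations that correlated above 0.1 (−0.30 to 0.74), and 2 of the 6 15% arrays correlated best with their own number, so the numbers were not used as pairs.

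Of 1142 values of named genes under alternatives, 884 kept their direction and side of the threshold, 234 lost the call, 4 gained it and 20 turned direction. Rpl26 was at 0.43 with 75th percentile scaling, where another probe stood for it. Normexp gave 0.21 for Rpl26, 0.41 for Add3 and 0.0075 for Myc. Cd80 was at −0.43 with either filter over the 12 arrays and without the fold filter, where another probe stood for it. The deposited table gave 1.23 for Map6 and −0.24 for Prdx6, where another probe may have stood for either gene. In the main fit the further probe of Map6 differed by 1.28 and those of Prdx6 by −0.52 to 0.31. The slide block gave −0.42 for Ubtf, −0.28 for Crip2, 1.25 for Chst3, 0.30 for Add3 and 0.69 for Myc. Scan day gave 0.23 for Chst3, 0.41 for Add3 and 0.52 for Myc, the liver level 0.17 for Add3, and leaving out 1 array −0.28 to 0.18 for Add3. Of 1188 list medians, taken over whichever probe stood for each gene under a setting, 804 moved by less than the spread between replicates. Arrays differed in signal over background, which limits dim genes: 21 genes called higher were well above background on no x-ray array and 12 called lower on no 15% array.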
